A study of Mus musculus with 16 samples.

Results

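The effect of an acute swim on RNA of the whole somatosensory cortex was measured in the INPUT libraries, which hold RNA of all cell types from cleared tissue lysate. They are 8 of the 16 libraries of the series, 4 from stress mice (replicates 1, 9, 10 and 12, numbered as the libraries are) and 4 from naïve mice (replicates 3, 7, 14 and 16). Of 24060 genes, the 13577 with a mean above 1 CPM over these 8 libraries were taken, where CPM is a gene's read count scaled to the library's total on all genes. Stress mice swam for 20 min in a bucket of water and were then returned to the home cage for 90 min before the tissue was taken, whereas naïve mice stayed in the home cage throughout. All mice were C57BL/6J, 3 months old and of the genotype Aldh1l1CreERT2-RiboTag, and all received tamoxifen at 2 months of age, naïve mice included. The Aldh1l1 promoter drives an inducible Cre in astrocytes, so that ribosomes of these cells carry a tag. RNA pulled down with that tag forms the other 8 libraries (IP), and the lysate before the pulldown, used here, holds neurons, glia and vessels together. In such bulk RNA, fewer cells of a type and less RNA per cell cannot be told apart. Swimming, wetting and handling came together, and their parts cannot be told apart.

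A stressor reaches the cortex by several routes. Neuronal firing and calcium entry switch on immediate early genes within minutes. Many of these encode transcription factors such as FOS, FOSB and the EGR family, whose mRNA is short-lived, and a later wave of activity-regulated genes follows. Adrenal glucocorticoids, corticosterone in the mouse, rise in blood during the same period, enter the brain and act through the glucocorticoid receptor, a transcription factor present in neurons, glia and endothelium. Its classical targets include Fkbp5, Sgk1, Tsc22d3 and Per1.

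The depth of the 8 libraries was 16392876 to 23412103 reads on genes, and 3 reads were worth at most 0.183 CPM. Tissue identity was checked with fixed marker lists. Neuronal markers were abundant, with summed levels over the pan-neuronal list of 14239 to 14986 CPM in naïve and 14063 to 16211 CPM in stress libraries. Of the choroid plexus and ependyma markers, 4 of 10 had a mean above 1 CPM, among them Ttr, the transthyretin gene of choroid plexus, which had 13.4 CPM in naïve replicate 3 against 0.294 to 0.966 CPM in the other naïve libraries. Hba-a1, Hbb-bt and Hbb-b2 of red blood cells were at 0 in all 8 libraries, which alone does not show that blood was absent. The study used uniquely mapped reads only, and the part of this in the zeros was not tested. Alas2, also of red blood cells, had 1.30 to 3.36 CPM in naïve and 2.56 to 6.84 CPM in stress libraries. From their groups, 3 libraries stood apart. Stress replicate 9 was low in nuclear RNAs, with 3375 CPM of Malat1 against 5082 to 8568 CPM in the other 7 libraries. Naïve replicate 14 lay towards the stress libraries for many glucocorticoid targets, as described with those genes. Naïve replicate 3 was the lowest library for several immediate early genes. Counts are therefore also given without each of these libraries, a choice made after their values were seen. For every gene and list below, results of such fits are a description and not independent support.

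Stress and naïve INPUT were compared gene by gene with limma on log2(CPM + 0.1), and genes with a Benjamini-Hochberg adjusted p under 0.05 were called. This called 6 of 13577 genes (0.0442%), 5 with a higher level after stress (0.0368%) and 1 with a lower level (0.00737%). The number of genes with an unadjusted p under 0.05 was 683, of which 355 were higher (2.61%) and 328 lower (2.42%). With no difference in any gene, about 679 are expected. The 4 stress values all lay above the 4 naïve values for 194 genes (1.43%) and below them for 195 genes (1.44%). Each pattern arises in 1 of the 70 labelings of the 8 libraries, so that these shares are near those expected with no difference. The median log2 fold change of all genes was −0.0025. Without naïve replicate 14 the test called 32 of 13585 genes (0.236%), without stress replicate 9 it called 18 of 13596 (0.132%), and without naïve replicate 3 it called 1 of 13562 (0.00737%). With each library weighted by its own scatter (limma array weights), 50 genes were called (0.368%). Of the 6 called genes, all 6 were also called without naïve replicate 14, without stress replicate 9 and with array weights, and without naïve replicate 3 the call was Fosb. Leaving out any of the other 5 libraries gave 1 or 2 calls. At an unadjusted p under 0.05, 4.06% of genes were higher and 3.45% lower without naïve replicate 14, 3.74% and 2.81% without stress replicate 9, and 2.09% and 1.91% without naïve replicate 3.

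Rasgef1b fell after stress, and the other 5 called genes, Fosb, Nedd9, Islr2, B4galt1 and Irs2, rose. Fosb, an AP-1 transcription factor of the immediate early class, had 9.94, 14.2, 12.9 and 12.4 CPM in naïve and 23.4, 28.2, 28.6 and 27.5 CPM in stress mice, in the order of replicates given above, which is kept throughout. The lowest stress value was above the highest naïve value, and the rise was 2.18-fold (log2 fold change 1.12, SE 0.11, adjusted p = 0.00183). Fosb was called in each of the 8 fits that left out a library. The gene lies on chromosome 7, 19302696 to 19310051, minus strand of GRCm38 (mm10), and its call was lost without a variance trend (log2 fold change 1.12, adjusted p = 0.0866) and with all 16 libraries in the model (log2 fold change 1.12, adjusted p = 0.0900).

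Islr2, which encodes a leucine-rich repeat membrane protein of growing axons, had 79.0, 80.4, 97.4 and 85.2 CPM in naïve and 120.0, 129.7, 126 and 116 CPM in stress mice (log2 fold change 0.53, SE 0.07, adjusted p = 0.0187). Naïve replicate 14 was the highest naïve library and still below every stress library. Nedd9, a scaffold protein of focal adhesions, had 15.2, 18.4, 15.7 and 16.9 CPM in naïve and 27.8, 25.7, 23.6 and 26.8 CPM in stress mice (log2 fold change 0.65, SE 0.09, adjusted p = 0.0187). Again every stress library was above every naïve library. Nedd9 was called in 4 of the 8 fits that left out a library and Islr2 in 2 of them, with adjusted p of 0.0165 to 0.14 and 0.00115 to 0.12. Islr2 lies on chromosome 9, 58196297 to 58204319, minus strand, and 3.06% of its exon bases are shared with the neighbouring gene Islr on the same strand. Nedd9 lies on chromosome 13, 41309581 to 41487362, minus strand.

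Irs2, the insulin receptor substrate that carries the signal of the insulin and IGF-1 receptors to PI3 kinase, had 47.0, 57.8, 59.95 and 53.0 CPM in naïve and 72.2, 79.3, 84.7 and 78.2 CPM in stress mice (log2 fold change 0.53, SE 0.08, adjusted p = 0.0339). B4galt1, a galactosyltransferase of the Golgi that builds N-glycans, had 4.01, 4.06, 4.79 and 5.09 CPM in naïve and 7.69, 7.77, 7.90 and 9.65 CPM in stress mice (log2 fold change 0.87, SE 0.13, adjusted p = 0.0385). Stress replicate 12 was the highest library for B4galt1, and the other 3 stress libraries lay between 7.69 and 7.90 CPM. Without that library the log2 fold change was 0.79 (adjusted p = 0.25). Rasgef1b, a guanine nucleotide exchange factor for Ras-family GTPases, had 119, 104, 108 and 105 CPM in naïve and 85.8, 78.5, 83.8 and 80.4 CPM in stress mice (log2 fold change −0.41, SE 0.06, adjusted p = 0.0339). It was lower in all 4 stress libraries than in any naïve library. Irs2, B4galt1 and Rasgef1b were called in 2 of the 8 fits that left out a library, those without naïve replicate 14 and without stress replicate 9, and the adjusted p over the 8 fits was 0.00911 to 0.20, 0.0225 to 0.25 and 0.0200 to 0.20. They lie on chromosome 8, 10984681 to 11008458, minus strand, on chromosome 4, 40804602 to 40854005, minus strand, and on chromosome 5, 99217426 to 99729065, minus strand. The exact two-sided permutation test over the 70 labelings gave p = 0.029 for each of the 6 genes, the smallest it can give. Every gene whose groups do not overlap has this p, so that it adds no support to the calls.

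**Figure D1:**
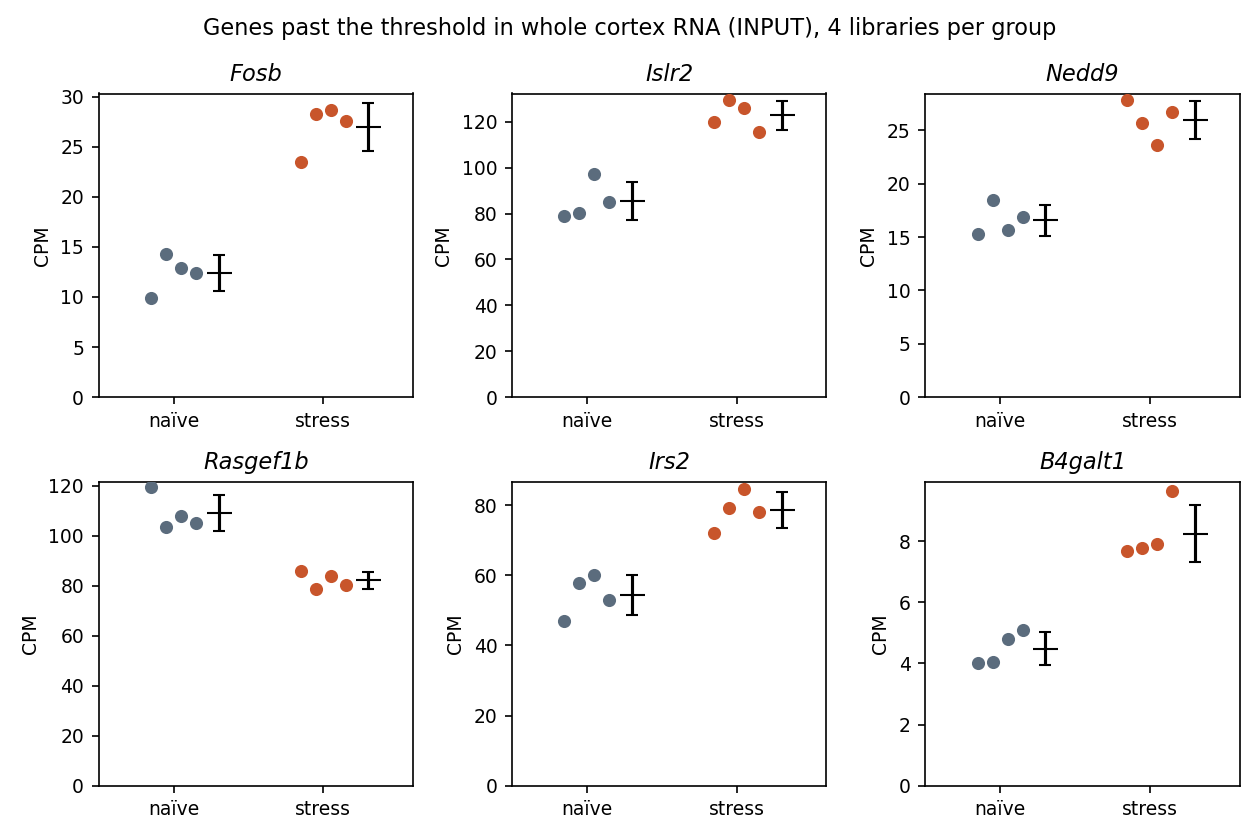
CPM (vertical axes, from 0) of the 6 called genes in each of the 4 naïve and 4 stress INPUT libraries. Points are libraries, and the bar with its error beside them is the mean ± SD. In each panel the 2 groups do not overlap: Fosb had at most 14.2 CPM in naïve and at least 23.4 CPM in stress libraries, and Rasgef1b, which fell, at least 103.6 CPM in naïve and at most 85.8 CPM in stress libraries.

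The list of rapid immediate early genes held 26 genes, of which 25 were tested. Fosb was called (0.0442% of all genes were). At an unadjusted p under 0.05, 8 were higher and 1 lower (2.61% and 2.42% of all genes). The median log2 fold change was 0.25 where that of all genes was −0.0025. The 4 stress values lay above the 4 naïve values for 4 members and below them for 1 (1.43% and 1.44% of all genes). Members of this list, and of the ERK feedback and glucocorticoid lists below, were chosen with earlier results of these data known. Their counts and medians are therefore a description and no evidence of their own. Among the genes of the EGR family, zinc finger factors induced by synaptic activity, Egr4 had 14.9, 22.0, 19.4 and 19.9 CPM in naïve and 26.5, 31.9, 25.2 and 31.7 CPM in stress mice (log2 fold change 0.60, SE 0.12, adjusted p = 0.12). Egr2 had 2.31, 9.01, 6.23 and 5.85 CPM in naïve and 11.3, 16.4, 9.59 and 12.6 CPM in stress mice (log2 fold change 1.20, SE 0.31, adjusted p = 0.40). In both, every stress library was above every naïve library, although neither passed the threshold.

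Fos, the most used marker of recent neuronal activity, had 7.46, 28.02, 14.3 and 22.6 CPM in naïve and 35.3, 35.4, 30.9 and 41.7 CPM in stress mice (log2 fold change 1.14, SE 0.29, adjusted p = 0.40). Naïve replicate 3 was the lowest and naïve replicate 7 the highest of its group, whereas the stress libraries were within 30.9 to 41.7 CPM, all above the naïve ones. Arc, a synaptic protein that regulates AMPA receptor trafficking, was equally uneven, with 123, 459, 175 and 419 CPM in naïve and 512, 376, 319.6 and 460.3 CPM in stress mice, so that the groups overlapped (log2 fold change 0.69, SE 0.33, adjusted p = 0.99). Egr1 had 98.9 to 229 CPM in naïve and 144 to 221 CPM in stress mice, Nr4a1, an orphan nuclear receptor, had 37.3 to 112 CPM in naïve and 71.6 to 87.9 CPM in stress mice, and Npas4, a factor selective for calcium entry in neurons, had 8.24 to 13.1 CPM in naïve and 4.01 to 15.4 CPM in stress mice. All 3 overlapped between the groups, with log2 fold changes of 0.32 ± 0.20, 0.14 ± 0.25 and −0.31 ± 0.30 (± SE). Klf6, a zinc finger factor, was the member whose stress values all lay below the naïve values, with 90.4 to 122 CPM in naïve and 83.9 to 86.6 CPM in stress mice (log2 fold change −0.29, SE 0.09, adjusted p = 0.57). It was named after its values were seen.

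Relative to the mean of the 8 libraries, the median member of the rapid immediate early list stood at −0.56, 0.10, −0.13 and −0.01 in naïve and 0.19, 0.14, 0.07 and 0.20 in stress libraries on the log2 scale. Naïve replicate 3 was thus the lowest library, and naïve replicate 7 lay within the range of the stress libraries. Without naïve replicate 3 the median log2 fold change was 0.13, and Fosb was still called. At an unadjusted p under 0.05 without this library, 6 members were higher and 1 lower (2.09% and 1.91% of all genes). For Nr4a1 the log2 fold change without it was −0.18, of the opposite sign. Without stress replicate 9 the list had 9 members higher and 1 lower (3.74% and 2.81% of all genes). Npas4 then had a log2 fold change of 0.05, also of the opposite sign.

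**Figure D2:**
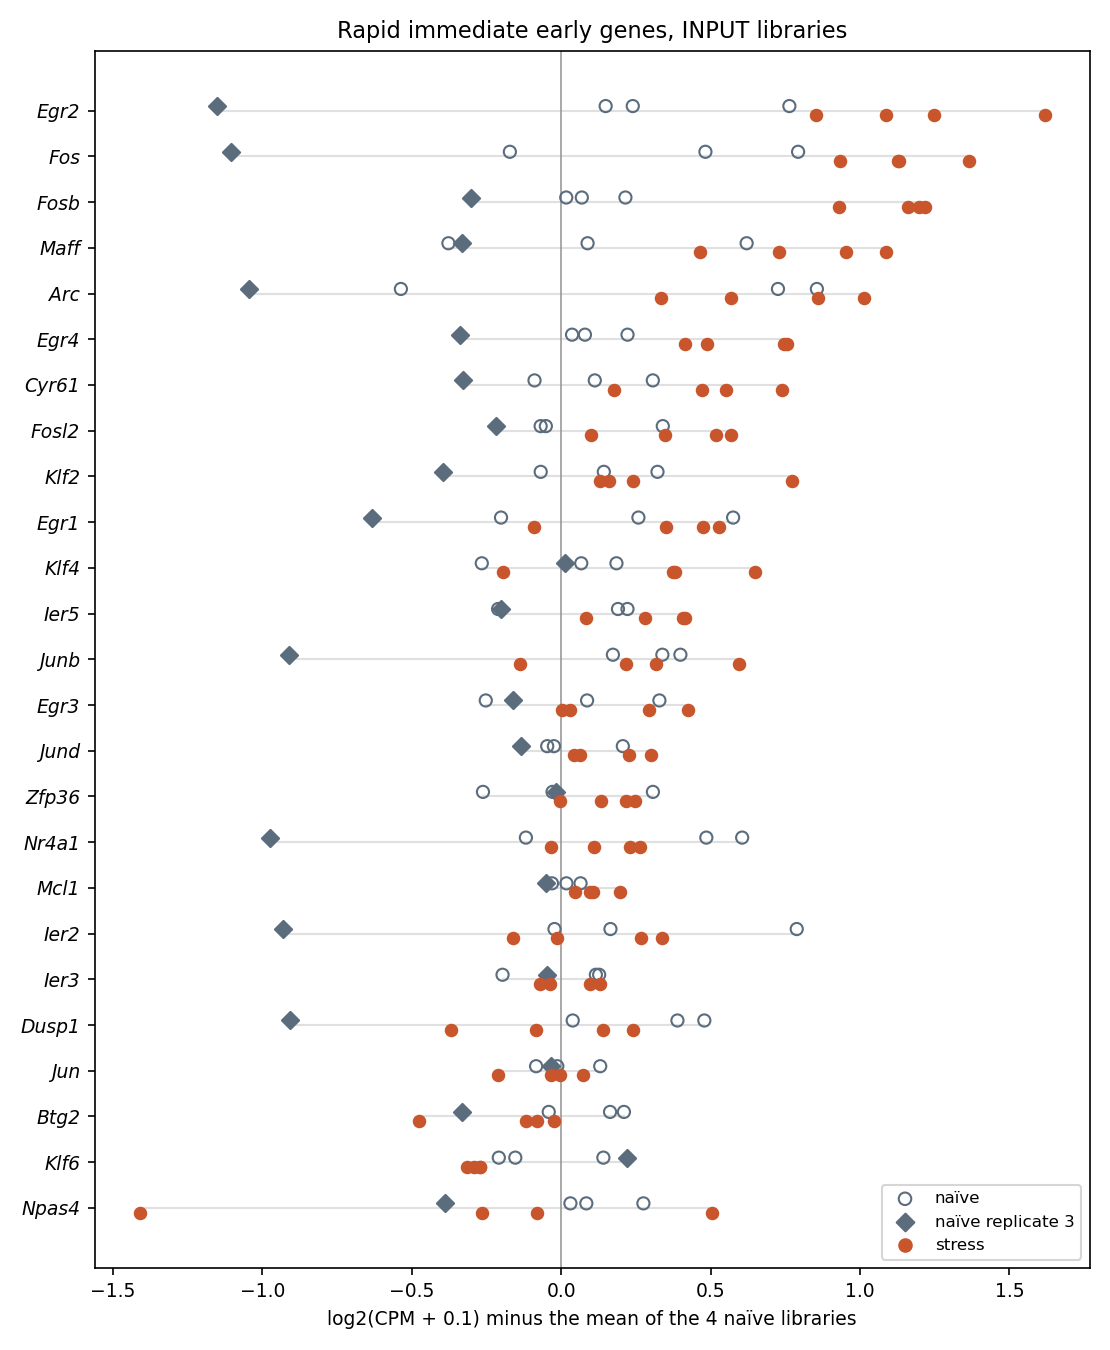
Level of each rapid immediate early gene tested, as log2(CPM + 0.1) minus the mean of the 4 naïve INPUT libraries (horizontal axis). Open circles are naïve libraries, the filled diamond is naïve replicate 3 and filled circles are stress libraries. Stress libraries lie to the right of the naïve ones for Fosb, Egr4, Egr2 and Fos, and the diamond is the lowest naïve value for Fos (7.46 CPM), Arc (122.9 CPM) and Egr1 (98.9 CPM).

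Genes of the delayed activity-regulated wave, 35 tested, included Nedd9 as the called member (0.0442% of all genes were called), and 11 were higher and 0 lower at an unadjusted p under 0.05, against 2.61% and 2.42% of all genes. Their median log2 fold change was 0.12, and their summed level was 4520.3 to 4844 CPM in naïve and 4929.7 to 5039 CPM in stress libraries, which did not overlap. Tiparp, an ADP-ribosyltransferase induced by the aryl hydrocarbon receptor, had 18.2, 24.7, 21.4 and 24.7 CPM in naïve and 33.6, 28.6, 29.3 and 31.1 CPM in stress mice (log2 fold change 0.47, SE 0.10, adjusted p = 0.17). Nedd9 and Tiparp were the members without overlap of the groups (1.43% of all genes were higher without overlap). In naïve mice both were higher in IP than in INPUT, by 1.69 and 2.06 on the log2 scale. The median of the list over all libraries was −2.75. Members of this list were chosen with earlier results of these data known, so that the call of Nedd9 is no evidence of its own for the list. Cdkn1a, the p21 cell cycle inhibitor, had 6.50, 9.07, 6.23 and 6.51 CPM in naïve and 8.91, 9.23, 15.4 and 12.6 CPM in stress mice (log2 fold change 0.68, SE 0.18, adjusted p = 0.40). Sik1, a salt-inducible kinase of the CREB pathway, had 9.71 to 20.7 CPM in naïve and 19.3 to 24.5 CPM in stress mice, Nr4a3, a further orphan nuclear receptor, 7.398 to 12.3 CPM in naïve and 12.0 to 15.0 CPM in stress mice, and Vgf, a secreted neuropeptide precursor, 241 to 339.5 CPM in naïve and 303 to 396 CPM in stress mice. Their log2 fold changes were 0.59 ± 0.18, 0.56 ± 0.15 and 0.32 ± 0.10. Without naïve replicate 14, without stress replicate 9 and without naïve replicate 3, the number of members higher at an unadjusted p under 0.05 was 13, 15 and 10. Of all genes, 4.06%, 3.74% and 2.09% were higher in these fits. The number of members lower was 1, 0 and 0, against 3.45%, 2.81% and 1.91% of all genes.

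Feedback inhibitors of ERK signalling, which are themselves transcribed when ERK is active, numbered 14, of which none was called by limma (log2 fold change 0.93, adjusted p = 0.11 for Dusp5), while 4 were higher and 0 lower at an unadjusted p under 0.05 (2.61% and 2.42% of all genes). The median log2 fold change was 0.17, and 3 were higher without overlap (1.43% of all genes). Dusp5, a nuclear phosphatase of ERK, had 4.91, 7.18, 9.48 and 8.60 CPM in naïve and 13.1, 13.2, 12.8 and 17.4 CPM in stress mice, a log2 fold change of 0.93 ± 0.18. Stress replicate 12 was above the other 3 stress libraries, which were close together. Dusp4, a related nuclear phosphatase, had 7.12, 9.01, 7.63 and 8.49 CPM in naïve and 11.9, 12.5, 10.7 and 14.1 CPM in stress mice (log2 fold change 0.60, SE 0.12, adjusted p = 0.11). Errfi1, an inhibitor of the EGF receptor that is also a glucocorticoid target, had 39.98, 41.1, 49.1 and 42.3 CPM in naïve and 60.9, 52.6, 59.8 and 62.1 CPM in stress mice (log2 fold change 0.45, SE 0.08, adjusted p = 0.0840). In all 3 genes the groups did not overlap. Without naïve replicate 14, Dusp5 and Errfi1 passed the threshold (log2 fold change 1.05, adjusted p = 0.0268 and log2 fold change 0.51, adjusted p = 0.0107). Of the exon bases of Dusp5, 22.1% overlap an antisense transcript (AC137853.2), and with counting whose use of strand is not given, reads of such pairs cannot be told apart.

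Among the lists with more than 1 tested gene, the glucocorticoid target list had the highest median log2 fold change. Of its 27 tested members none was called by limma with all 8 libraries. At an unadjusted p under 0.05, 17 were higher and 2 lower (2.61% and 2.42% of all genes). The median log2 fold change was 0.45, against −0.0025 for all genes. The stress values lay above all naïve values for 6 members (22.2%, against 1.43% of all genes) and below them for 1 (1.44% of all genes). Since members were chosen with earlier results of these data known, these counts are no evidence of their own for the list. Tsc22d3 (GILZ), an anti-inflammatory leucine zipper protein, had 74.4, 68.5, 113 and 80.2 CPM in naïve and 145, 126, 138 and 128 CPM in stress mice (log2 fold change 0.70, SE 0.12, adjusted p = 0.0840). Klf9, a Krüppel-like factor, had 368, 393, 447 and 394 CPM in naïve and 484, 485, 534 and 498 CPM in stress mice (log2 fold change 0.32, SE 0.06, adjusted p = 0.11). Nfkbia, the inhibitor of NF-κB, had 13.4, 14.5, 23.2 and 18.0 CPM in naïve and 25.1, 25.5, 28.8 and 29.1 CPM in stress mice (log2 fold change 0.68, SE 0.14, adjusted p = 0.17). None of the 3 overlapped between the groups, and in all 3 naïve replicate 14 was the highest naïve library.

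The separation of replicate 14 from the other naïve libraries was wider in Fkbp5, Sgk1 and Klf15. Fkbp5, a co-chaperone that lowers the affinity of the glucocorticoid receptor, had 22.5, 23.9, 49.3 and 27.1 CPM in naïve and 43.7, 44.3, 62.7 and 53.0 CPM in stress mice (log2 fold change 0.79, SE 0.20, adjusted p = 0.36). Sgk1, a kinase that regulates ion channels and transporters, had 70.2, 73.0, 124 and 79.3 CPM in naïve and 129.6, 118, 134 and 139 CPM in stress mice (log2 fold change 0.63, SE 0.14, adjusted p = 0.20). Klf15 had 19.0, 20.4, 37.4 and 22.6 CPM in naïve and 35.5, 31.4, 34.2 and 35.1 CPM in stress mice (log2 fold change 0.51, SE 0.16, adjusted p = 0.66). In Fkbp5, Sgk1 and Klf15, replicate 14 lay within or above the range of the stress libraries and the other 3 naïve libraries were all below it. Per1, a clock gene with glucocorticoid response elements, had 41.3, 77.5, 82.4 and 69.9 CPM in naïve and 77.6, 92.3, 72.3 and 85.3 CPM in stress mice (log2 fold change 0.32, SE 0.17, adjusted p = 0.99), where naïve replicate 3 was lowest.

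Relative to the mean of the 8 libraries, the median member of the glucocorticoid list stood at −0.48, −0.29, 0.13 and −0.18 in naïve and 0.13, 0.06, 0.30 and 0.30 in stress libraries. Naïve replicate 14 was thus within the range of the stress libraries. Without it, 7 members were called (0.236% of all genes were), namely Errfi1, Fkbp5, Klf15, Klf9, Nfkbia, Sgk1 and Tsc22d3, all higher after stress. For Fkbp5 the log2 fold change was then 1.04 ± 0.12 (adjusted p = 0.00212), for Sgk1 0.81 ± 0.07 (adjusted p = 2.16e-04), for Tsc22d3 0.85 ± 0.07 (adjusted p = 2.16e-04) and for Klf15 0.72 ± 0.09 (adjusted p = 0.00264). The number of members whose groups did not overlap was then 18 higher and 2 lower, where 4.37% of all genes were higher and 4.01% lower without overlap in the same 7 libraries. Without stress replicate 9, Tsc22d3, Errfi1 and Arrdc2 were called (0.132% of all genes were). Since naïve replicate 14 was doubted for these values, the fits without it are a description and not independent support. The library is labelled as a home cage control, and the labels give no hormone level for any mouse.

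Further members are given by their values. Angptl4, a secreted inhibitor of lipoprotein lipase, had 1.69, 1.00, 1.55 and 1.53 CPM in naïve and 2.50, 2.18, 3.65 and 3.97 CPM in stress mice (log2 fold change 1.02, SE 0.24, adjusted p = 0.26). Arrdc2, an arrestin-domain protein, had 6.66, 8.42, 11.1 and 8.70 CPM in naïve and 15.4, 10.7, 14.9 and 16.5 CPM in stress mice (log2 fold change 0.72, SE 0.16, adjusted p = 0.21), and Cebpd, a C/EBP transcription factor, 2.20, 2.24, 4.29 and 1.73 CPM in naïve and 4.58, 3.25, 4.43 and 5.13 CPM in stress mice (log2 fold change 0.78, SE 0.25, adjusted p = 0.64). Angptl4 did not overlap between the groups, whereas stress replicate 9 of Arrdc2 was below naïve replicate 14. A pair of members stood lower after stress at an unadjusted p under 0.05. Sox2, a transcription factor of astrocytes and neural stem cells, had 39.4, 36.1, 30.5 and 40.9 CPM in naïve and 29.0, 30.9, 31.1 and 32.3 CPM in stress mice (log2 fold change −0.24, SE 0.09, adjusted p = 0.86). Zfp36l2, an RNA-binding protein that shortens the life of mRNAs, had 24.7, 25.4, 24.5 and 29.0 CPM in naïve and 14.1, 22.2, 22.7 and 22.4 CPM in stress mice (log2 fold change −0.37, SE 0.14, adjusted p = 0.86), with stress replicate 1 far below the other 3.

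**Figure D3:**
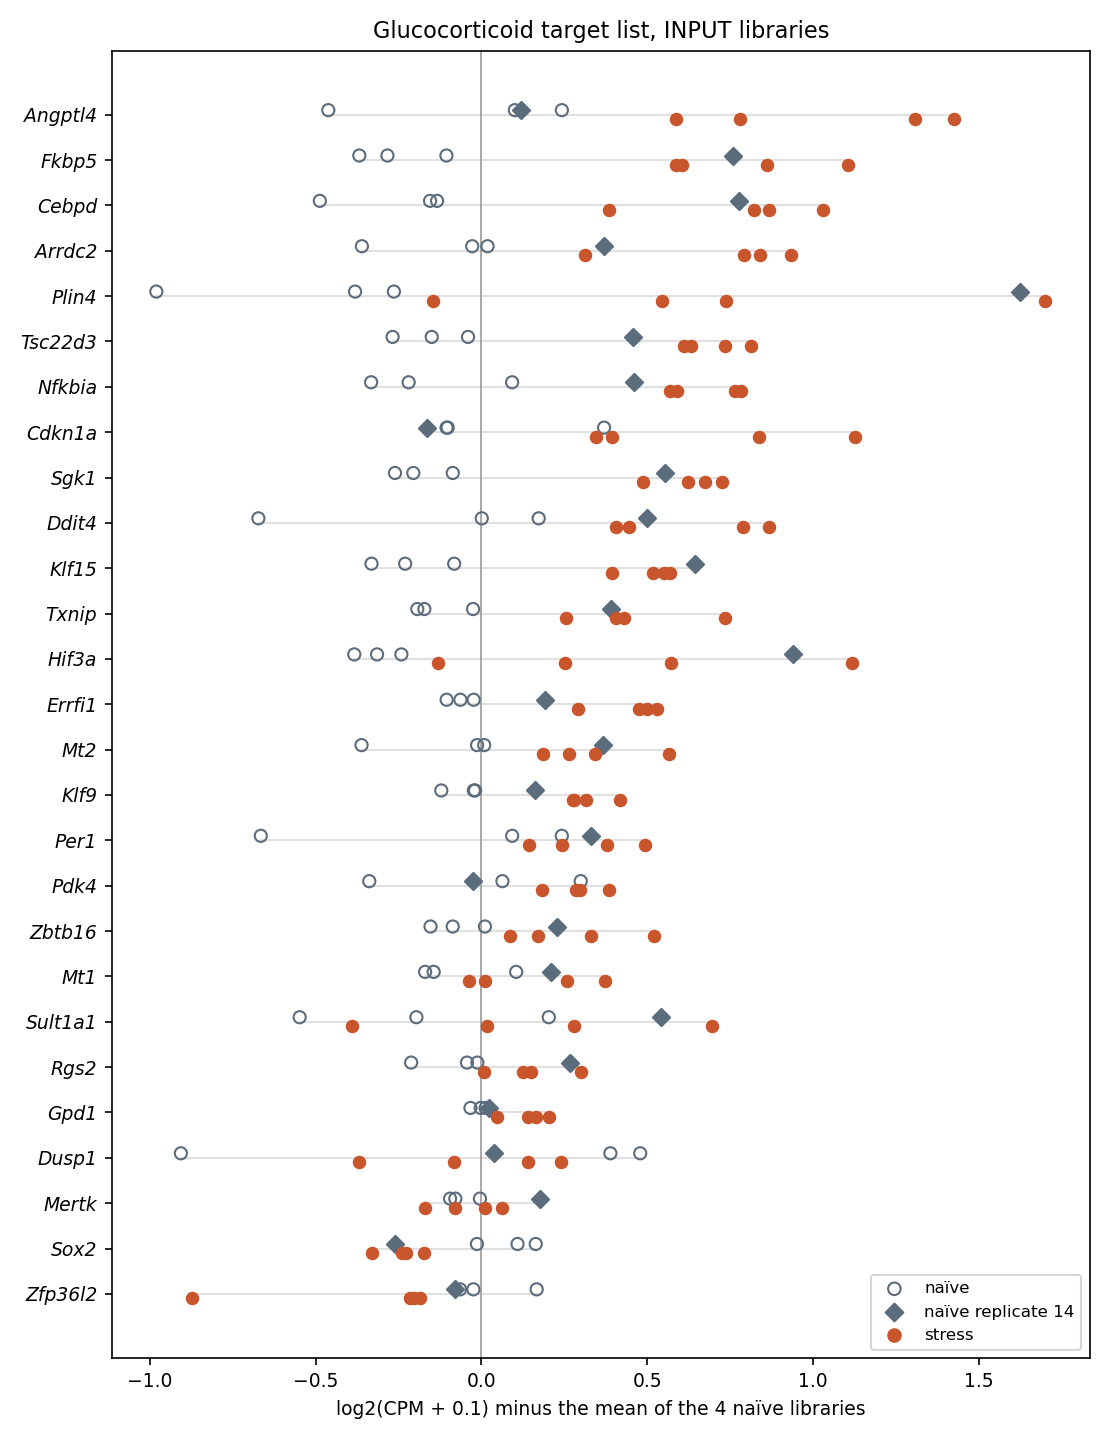
Level of each of the 27 glucocorticoid list members tested, as log2(CPM + 0.1) minus the mean of the 4 naïve INPUT libraries (horizontal axis), sorted by log2 fold change. Open circles are naïve libraries, the filled diamond is naïve replicate 14 and filled circles are stress libraries. For Fkbp5 (49.3 CPM), Sgk1 (123.5 CPM) and Klf15 (37.4 CPM) the diamond sits among or above the stress libraries, away from the other 3 naïve libraries.

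To show what stands before such genes, the 250 bases before each RefSeq start (GRCm38.p6) were searched on both strands for the CRE (TGACGTCA), bound by CREB, the AP-1 site (TGANTCA), bound by FOS and JUN dimers, the CArG box, bound by SRF, and the palindromic glucocorticoid response element. No stretch shown holds overlapping matches of different motifs. They were found in 508 (1.55%), 2217 (6.75%), 482 (1.47%) and 3 (0.00913%) of 32851 windows. None of the 6 called genes had a match to any of these motifs in a window, which says only that these letters are not there. A CRE was found in 3 of 20 rapid immediate early genes with a window (Maff, Btg2 and Dusp1), where 1.77% of all genes had one. Of these, Btg2 and Dusp1 did not rise (log2 fold changes −0.175 ± 0.14 and −0.018 ± 0.242). A CArG box was found in 2 of the 20 (Egr2 and Zfp36) and in 0 of 26 delayed genes, where 1.62% of all genes had one. An AP-1 site was found in 0 of 20 rapid, 1 of 26 delayed and 2 of 22 glucocorticoid genes, where 7.82% of all genes had one. The stretches below belong to 5 genes with a higher mean after stress whose window held a motif, chosen after their values were seen, so that the motif can be read in its place. They are given with the motif in capitals and the last base next to the start except in Dusp5, where the site is given with 5 bases on each side because an annotated Dusp5 transcript begins before the RefSeq start.
Egr2, chr10:67537466-67537565, plus strand: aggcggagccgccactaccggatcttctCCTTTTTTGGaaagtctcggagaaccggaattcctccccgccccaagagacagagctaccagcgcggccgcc
Dusp5, chr19:53529058-53529087, plus strand: aatacCCATATTTGGCCTTATATGGgcact
Errfi1, chr4:150854970-150855069, plus strand: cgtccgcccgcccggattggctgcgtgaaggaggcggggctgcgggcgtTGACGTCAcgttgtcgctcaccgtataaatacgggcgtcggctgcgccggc
Klf9, chr19:23141126-23141225, plus strand: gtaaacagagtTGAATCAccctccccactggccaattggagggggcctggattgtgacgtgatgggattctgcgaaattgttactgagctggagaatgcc
Sgk1, chr10:21993691-21993889, plus strand: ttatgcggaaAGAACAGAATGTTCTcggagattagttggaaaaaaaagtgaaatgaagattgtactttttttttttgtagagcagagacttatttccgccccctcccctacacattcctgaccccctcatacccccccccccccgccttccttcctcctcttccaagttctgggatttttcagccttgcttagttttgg
The capitals mark a CArG box in Egr2, 2 adjoining CArG boxes in Dusp5, a CRE in Errfi1, an AP-1 site in Klf9 and a glucocorticoid response element in Sgk1. Egr2, Errfi1 and Sgk1 have several RefSeq starts, and the stretches of all 3 stand before a start inside the annotated gene. The Sgk1 window was 1 of the 3 windows that held this element, and Sgk1 was the only member among the 22 of the glucocorticoid list with a window that had it. Looser forms of the element and sites outside these windows were not searched, so that its absence from a window does not show that a gene lacks it. Which start was used in these libraries cannot be read from counts per gene.

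Across all genes, the 10 genes with the smallest p among those higher in all 4 stress libraries but not called were Zfp189, Elmsan1, Tsc22d3, Errfi1, Golm1, Dnajb5, Camk1g, Grasp, Ucp2 and Klf9. Zfp189, a zinc finger protein, had 13.0, 13.7, 20.6 and 15.2 CPM in naïve and 30.7, 22.9, 28.5 and 29.8 CPM in stress mice (log2 fold change 0.85, SE 0.14, adjusted p = 0.0502), just above the threshold, and naïve replicate 14 was again the highest naïve library. It passed in 6 of 12 other settings, such as pseudocount 1 and quantile normalization (adjusted p 0.00345 to 0.41 over these settings). Elmsan1, a subunit of histone deacetylase complexes, had 28.2 to 35.2 CPM in naïve and 43.6 to 47.4 CPM in stress mice (log2 fold change 0.48, SE 0.08, adjusted p = 0.0546). The neuronal kinase Camk1g had 35.8 to 43.7 CPM in naïve and 46.1 to 56.5 CPM in stress mice, the scaffold Grasp (tamalin), which binds metabotropic glutamate receptors, 57.8 to 63.3 CPM in naïve and 71.1 to 84.8 CPM in stress mice, and the co-chaperone Dnajb5 102 to 126 CPM in naïve and 144 to 159 CPM in stress mice. Their log2 fold changes were 0.43 ± 0.08, 0.34 ± 0.07 and 0.40 ± 0.07. The mitochondrial uncoupling protein Ucp2 had 5.30 to 7.63 CPM in naïve and 8.60 to 12.6 CPM in stress mice, and the Golgi protein Golm1 30.1 to 35.9 CPM in naïve and 38.9 to 53.1 CPM in stress mice. Golm1 shares 29.3% of its exon bases with Naa35 on the opposite strand.

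The 10 genes with the smallest p among those lower in all 4 stress libraries but not called were Npy1r, Cep85l, Cxcl12, Sox9, A830082K12Rik, Flrt2, AI593442, P2ry13, Rnf144a and Cdc42ep1. Npy1r, a receptor for neuropeptide Y, had 40.1, 32.7, 33.1 and 32.0 CPM in naïve and 25.6, 25.2, 26.0 and 23.7 CPM in stress mice (log2 fold change −0.45, SE 0.08, adjusted p = 0.10). Naïve replicate 3 was the highest, and the other naïve libraries also lay above all stress libraries. Cxcl12, a chemokine made by endothelium and by some neurons and glia, had 22.9, 24.2, 18.6 and 24.5 CPM in naïve and 16.7, 13.4, 16.3 and 16.9 CPM in stress mice (log2 fold change −0.50, SE 0.11, adjusted p = 0.17). P2ry13, a purinergic receptor of microglia, had 17.9, 15.7, 15.1 and 16.0 CPM in naïve and 11.4, 14.4, 9.63 and 9.21 CPM in stress mice (log2 fold change −0.55, SE 0.13, adjusted p = 0.28). Flrt2, an adhesion protein that guides axons, had 193 to 220.4 CPM in naïve and 159.6 to 178 CPM in stress mice (log2 fold change −0.25, SE 0.06, adjusted p = 0.23). Cxcl12 was called without naïve replicate 14, where its value of 18.6 CPM was the lowest of the naïve libraries (log2 fold change −0.59, adjusted p = 0.0268), and P2ry13 without stress replicate 9 (log2 fold change −0.68, adjusted p = 0.0295).

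Neuronal marker genes differed little between the groups. None of the 15 pan-neuronal, 20 excitatory and 20 inhibitory markers was called by limma, and their median log2 fold changes were −0.01, −0.02 and 0.03. At an unadjusted p under 0.05, 1 pan-neuronal marker was higher and 0 lower, 1 excitatory marker was higher and 2 lower, and 5 inhibitory markers were higher and 0 lower (2.61% and 2.42% of all genes). Rbfox3, the neuronal nuclear antigen NeuN, had 415 to 479.5 CPM in naïve and 331 to 487 CPM in stress mice, and Slc17a7, the vesicular glutamate transporter of cortical excitatory neurons, 1080.0 to 1238 CPM in naïve and 1082 to 1246 CPM in stress mice. Stress replicate 9 had the highest Slc17a7 of its group, 1246 CPM. Of the excitatory markers, Rorb, a factor of layer 4, had 193 to 219 CPM in naïve and 176 to 195 CPM in stress mice (log2 fold change −0.17, SE 0.06, adjusted p = 0.71), and Neurod2 131 to 157 CPM in naïve and 155 to 188 CPM in stress mice (log2 fold change 0.22, SE 0.07, adjusted p = 0.71). Rorb had a mean of 640 CPM in naïve IP against 208 CPM in naïve INPUT, whereas 18 of the 20 excitatory markers were lower in IP by more than 1 on the log2 scale. In which cells Rorb RNA fell was not tested.

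The summed level of the inhibitory list was 1961 to 1993 CPM in naïve and 2044 to 2200.1 CPM in stress libraries, which did not overlap. Relative to the mean of the 8 libraries, the median member stood at −0.037, −0.049, −0.002 and −0.013 in naïve and 0.052, 0.056, 0.038 and 0.021 in stress libraries, again without overlap. The median log2 fold change of 0.029 became 0.087 without naïve replicate 14. At an unadjusted p under 0.05, 3 markers were higher without naïve replicate 14, without stress replicate 9 or without naïve replicate 3. Of all genes, 4.06%, 3.74% and 2.09% were higher in these fits. Gad1, the enzyme that makes GABA, had 303, 301, 323 and 305 CPM in naïve and 338, 341, 331 and 329.8 CPM in stress mice (log2 fold change 0.12, SE 0.04, adjusted p = 0.87). The lowest stress library was above the highest naïve library by 329.8 against 323 CPM. Cck, the neuropeptide cholecystokinin, which cortical excitatory cells also express, had 433, 429, 447 and 432 CPM in naïve and 555, 541, 449.5 and 466 CPM in stress mice (log2 fold change 0.20, SE 0.07, adjusted p = 0.71), and Npy, neuropeptide Y, 208, 185, 166 and 168 CPM in naïve and 211, 245, 216 and 178 CPM in stress mice (log2 fold change 0.23, SE 0.09, adjusted p = 0.95). Of the 20 markers, 12 had a higher and 8 a lower mean after stress. Sst, the somatostatin gene, was among the lower ones, with 173 to 179 CPM in naïve and 165 to 169 CPM in stress mice and no overlap (log2 fold change −0.07 ± 0.04). Gad2 and Slc32a1 were also lower, with overlap of the groups (log2 fold changes −0.061 ± 0.091 and −0.075 ± 0.075). Sst, Gad2 and Slc32a1 were named after their values were seen.

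Astrocyte markers were likewise close in the 2 groups, with Sox9 as the member that stood out. Of 20 markers none was called by limma, and 0 were higher and 1 lower at an unadjusted p under 0.05 (2.61% and 2.42% of all genes). The median log2 fold change was −0.01. Sox9, a transcription factor of astrocyte identity, had 19.5, 21.4, 16.1 and 22.3 CPM in naïve and 12.0, 13.8, 15.8 and 12.2 CPM in stress mice (log2 fold change −0.55, SE 0.12, adjusted p = 0.19). Naïve replicate 14 was the lowest naïve library, just above the highest stress library, and without it Sox9 passed the threshold (log2 fold change −0.65, adjusted p = 0.0351). Gja1 and Gjb6, which encode the gap junction proteins connexin 43 and connexin 30, had 162 to 182 CPM in naïve and 126 to 172 CPM in stress mice and 51.6 to 70.2 CPM in naïve and 54.2 to 78.5 CPM in stress mice (log2 fold changes −0.17 ± 0.08 and 0.05 ± 0.11). Glul, the glutamine synthetase gene, had 2124 to 2357 CPM in naïve and 2024 to 2238 CPM in stress mice (−0.11 ± 0.05). The summed level over the list was 10203 to 10861 CPM in naïve and 9583 to 10424 CPM in stress libraries.

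The level of the median oligodendrocyte, precursor and microglia marker overlapped between the groups. None of 20 oligodendrocyte, 15 precursor and 20 microglia and macrophage markers was called by limma. The mean after stress was lower for 16, 12 and 13 of them and higher for 4, 3 and 7. At an unadjusted p under 0.05, 0 oligodendrocyte markers were higher and 5 lower (median log2 fold change −0.09), 0 precursor markers were higher and 1 lower (−0.05), and 1 microglia marker was higher and 3 lower (−0.09), where 2.61% of all genes were higher and 2.42% lower. The medians were no larger than the SD of the list's level between libraries (0.0965, 0.0502 and 0.101). Without naïve replicate 3, 2 oligodendrocyte markers were lower (1.91% of all genes), and without naïve replicate 14, 6 were (3.45% of all genes). Sox10, the lineage factor of oligodendrocytes, had 31.2, 36.8, 31.2 and 30.4 CPM in naïve and 25.9, 30.4, 27.5 and 26.6 CPM in stress mice (log2 fold change −0.23, SE 0.08, adjusted p = 0.84), and Mbp, myelin basic protein, 654 to 811 CPM in naïve and 514 to 682 CPM in stress mice (−0.20 ± 0.09). Cx3cr1, the fractalkine receptor of microglia, had 55.6, 49.6, 47.4 and 48.6 CPM in naïve and 47.2, 45.3, 39.4 and 36.2 CPM in stress mice (log2 fold change −0.26, SE 0.09, adjusted p = 0.72), without overlap. C1qb, a complement subunit also made by microglia, pointed the other way, with 35.8 to 42.0 CPM in naïve and 38.4 to 44.8 CPM in stress mice (0.17 ± 0.07). Without stress replicate 9, 0 microglia markers were higher and 4 lower (3.74% and 2.81% of all genes). Without naïve replicate 3, 0 were higher and 1 was lower (2.09% and 1.91% of all genes). Without naïve replicate 14, 2 were higher and 3 lower (4.06% and 3.45% of all genes).

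Endothelial genes ranged from −0.68 to 0.50 in log2 fold change. Of 22 tested none was called by limma, and 19 had a lower and 3 a higher mean after stress. At an unadjusted p under 0.05, 2 were higher and 4 lower (2.61% and 2.42% of all genes). The median log2 fold change was −0.13. Mfsd2a, the lipid transporter of the blood-brain barrier, had 17.2, 14.0, 18.6 and 15.8 CPM in naïve and 24.6, 18.2, 26.7 and 23.4 CPM in stress mice (log2 fold change 0.50, SE 0.12, adjusted p = 0.33). Slc2a1, the glucose transporter GLUT1 of the barrier, had 43.4, 45.0, 53.9 and 45.3 CPM in naïve and 65.8, 48.1, 63.3 and 71.1 CPM in stress mice (log2 fold change 0.39, SE 0.11, adjusted p = 0.46). In both, stress replicate 9 was the lowest stress library, and without it both passed the threshold (log2 fold change 0.61, adjusted p = 0.0338 and log2 fold change 0.51, adjusted p = 0.0283). Both were also higher in IP than in INPUT, by 2.94 and 1.08 on the log2 scale over all libraries of each kind, whereas 19 of the 22 endothelial genes were lower in IP by more than 1.

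Cldn5, the tight junction protein claudin 5, had 17.1, 14.8, 8.53 and 16.2 CPM in naïve and 9.82, 6.83, 6.94 and 11.0 CPM in stress mice (log2 fold change −0.69, SE 0.21, adjusted p = 0.60). Kdr and Flt1, which encode receptors for VEGF, had 8.41, 8.71, 3.99 and 6.87 CPM in naïve and 4.39, 3.54, 3.79 and 5.41 CPM in stress mice and 30.6, 31.9, 20.6 and 26.3 CPM in naïve and 21.5, 17.1, 22.7 and 24.7 CPM in stress mice (log2 fold changes −0.65 ± 0.22 and −0.34 ± 0.14). For all 3 genes naïve replicate 14 lay among the stress libraries. Without it, Cldn5 passed the threshold (log2 fold change −0.91, adjusted p = 0.0445), 5 endothelial genes were lower and 3 higher without overlap (4.01% and 4.37% of all genes), where 0 were so with all 8 libraries, and the median was −0.23. Without stress replicate 9 the median was −0.06, and 2 were higher and 2 lower at an unadjusted p under 0.05 (3.74% and 2.81% of all genes). Relative to the mean of the 8 libraries, the median endothelial gene stood at 0.19, 0.08, −0.07 and 0.11 in naïve and −0.05, −0.33, −0.08 and 0.16 in stress libraries, so that the lowest library was stress replicate 9, the library that was also low in nuclear RNAs. Among the naïve libraries, replicate 14 was the lowest for the median endothelial gene. It was also the lowest of them for the median nuclear RNA, at −0.265 where the others stood at 0.025 to 0.249. The part of RNA composition in the endothelial values of stress replicate 9 and naïve replicate 14 was not tested.

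Markers of mural cells, the pericytes and smooth muscle of vessels, had a median log2 fold change of −0.02. At an unadjusted p under 0.05, 0 of 14 were higher and 1 lower (2.61% and 2.42% of all genes). Pdgfrb, the platelet-derived growth factor receptor, had 24.3 to 27.4 CPM in naïve and 20.6 to 25.2 CPM in stress mice (−0.19 ± 0.08). Its mean was 132 CPM in naïve IP against 25.4 CPM in naïve INPUT, whereas 10 of the 14 mural genes were lower in IP by more than 1 on the log2 scale. Fibroblast and meningeal markers had a median of 0.18, with 2 of 15 higher and 0 lower. Without naïve replicate 14, 5 were higher (4.06% of all genes), and without naïve replicate 3, 1 was (2.09% of all genes). Col3a1, a fibrillar collagen, had 3.95, 4.30, 4.59 and 4.98 CPM in naïve and 5.31, 5.25, 7.49 and 6.79 CPM in stress mice (log2 fold change 0.46, SE 0.15, adjusted p = 0.71). The summed level of this list ranged over 477 to 825 CPM in naïve and 680.4 to 855 CPM in stress libraries, with naïve replicate 7 lowest. The list of vascular activation genes, such as Plat, Vegfa and Apold1, had a median of 0.04, with 1 of 22 higher and 1 lower. Plat, tissue plasminogen activator, had 22.6, 26.9, 26.9 and 27.7 CPM in naïve and 30.9, 27.0, 35.1 and 31.7 CPM in stress mice (log2 fold change 0.26, SE 0.09, adjusted p = 0.83). No member of the mural, fibroblast or vascular activation lists was called by limma.

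**Figure D4:**
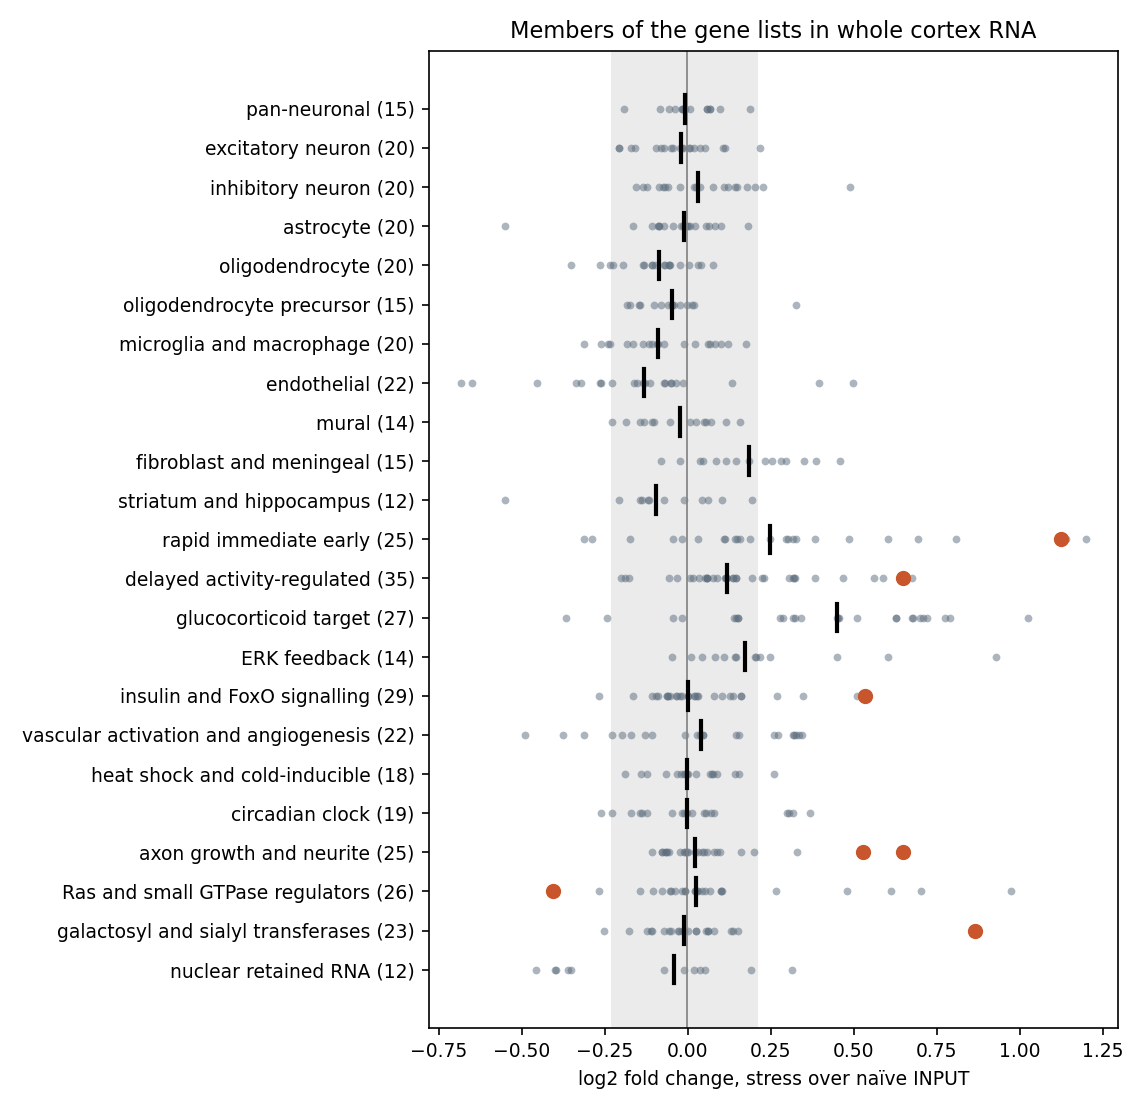
Log2 fold change of stress over naïve INPUT (horizontal axis) for the tested members of 23 gene lists, with the number tested in brackets. Points are members, those in orange passed the threshold, black bars are list medians, and the grey band spans the 5th to 95th percentile of all 13577 genes (−0.23 to 0.21). The glucocorticoid target list has the highest median (0.45), followed by the rapid immediate early list (0.25), and the cell type lists lie between −0.13 and 0.18.

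In the pathways to which the other called genes belong, the median member was near 0. Lists for axon growth, for Ras and small GTPase regulators and for galactosyl and sialyl transferases were drawn up around called genes, and their counts are no evidence of their own. Of all genes, 0.0442% were called, and 2.61% were higher and 2.42% lower at an unadjusted p under 0.05. Of 29 genes of insulin and FoxO signalling, Irs2 was called, 3 were higher and 0 lower at an unadjusted p under 0.05, and the median log2 fold change was 0.001. Trib2, a pseudokinase that restrains FoxO factors, had 42.7 to 65.5 CPM in naïve and 64.2 to 78.0 CPM in stress mice (0.35 ± 0.11). Of 25 axon growth genes, Islr2 and Nedd9 were called and the median was 0.02. Of 26 regulators of small GTPases, Rasgef1b was called, 4 were higher and 2 lower at an unadjusted p under 0.05, and the median was 0.02. Arl4d, an ARF-like GTPase, had 8.47, 12.5, 12.6 and 14.4 CPM in naïve and 19.8, 17.0, 17.9 and 22.6 CPM in stress mice (log2 fold change 0.70, SE 0.15, adjusted p = 0.17), with no overlap, and Rasd1, a dexamethasone-induced Ras-like protein, 1.35, 1.71, 1.84 and 1.12 CPM in naïve and 2.26, 1.92, 4.75 and 3.92 CPM in stress mice (log2 fold change 0.97, SE 0.28, adjusted p = 0.52). Of 23 galactosyl and sialyl transferases, B4galt1 was called and the median was −0.01, and B4galt5, a related enzyme of glycolipid synthesis, had 73.1 to 78.6 CPM in naïve and 73.1 to 87.7 CPM in stress mice (0.13 ± 0.06).

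Heat shock and cold-inducible genes, relevant to a swim in water, had a median log2 fold change of −0.002, and none of 18 reached an unadjusted p under 0.05. Hspa8, the constitutive chaperone, had 1137 to 1286 CPM in naïve and 1167 to 1455 CPM in stress mice (0.14 ± 0.07). Circadian clock genes had a median of −0.003, with 1 of 19 higher and 3 lower at an unadjusted p under 0.05 (2.61% and 2.42% of all genes). Among them, Nr1d1 (REV-ERBα) had 67.6 to 83.1 CPM in naïve and 59.4 to 72.8 CPM in stress mice (−0.26 ± 0.08). Bhlhe40, a repressor of the clock, had 118 to 186 CPM in naïve and 170.3 to 222 CPM in stress mice (0.30 ± 0.13). The time of day of each sample is not given in the labels. Of 12 markers of striatum and hippocampus, 0 were higher and 1 was lower at an unadjusted p under 0.05 (2.61% and 2.42% of all genes). Their median was −0.10, and their summed level was 556 to 577 CPM in naïve and 540.1 to 575 CPM in stress libraries. The choroid plexus and red blood cell lists had 4 and 1 genes tested, none with an unadjusted p under 0.05. The 12 nuclear retained RNAs had a median of −0.04 with all libraries, −0.30 without naïve replicate 14 and 0.13 without stress replicate 9, in which Kcnq1ot1 had 25.5 CPM where the rest of its group had 80.1 to 89.2 CPM.

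Where the RNA of the genes that differed was found was read from the ratio of IP to INPUT over all 8 libraries of each kind, averaged over naïve and stress mice. Fosb, Islr2 and Rasgef1b had log2 ratios of −4.16, −4.23 and −3.45, where the median was −3.84 for the pan-neuronal, −3.65 for the oligodendrocyte, −3.30 for the microglia and −2.83 for the endothelial list, all depleted from the astrocyte pulldown. Nedd9 had 1.63, and Irs2 and B4galt1 had −0.37 and −0.81, where the median of all genes was −0.69. The median of the astrocyte list was 3.56, that of the rapid immediate early list −2.19 and that of the glucocorticoid list 1.10. Of the 194 genes whose stress values lay above all naïve values, 14.9% were higher in IP by more than 1 and 40.7% lower by more than 1, against 11.8% and 40.3% of all genes. For the 195 genes whose stress values lay below, the shares were 16.9% and 44.1%.

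The stress effect in INPUT was set beside that in astrocyte ribosome-bound RNA (IP), in which 55 of 12501 genes were called (0.44%). An IP and an INPUT library were made from the lysate of each mouse. The labels do not say which libraries share a mouse, so that the test of the difference treats the 16 libraries as independent, which they are not, and the p-values of that test take no account of this pairing. For Irs2 the log2 fold change was 0.53 ± 0.08 in INPUT and 1.30 ± 0.16 in IP (adjusted p = 0.00489). The difference, −0.77 ± 0.20, did not pass the threshold (adjusted p = 0.40). Nedd9 had 0.65 ± 0.09 and 0.53 ± 0.10, and Rasgef1b −0.41 ± 0.06 and −0.40 ± 0.13, neither of them called in IP by limma (adjusted p = 0.0526 and 0.408). Sox9, called in IP, had −0.55 ± 0.12 and −0.65 ± 0.08. Islr2 had 0.53 ± 0.07 in INPUT and −0.04 ± 0.18 in IP, and B4galt1 0.87 ± 0.13 and −0.04 ± 0.24. Their differences, 0.56 ± 0.19 and 0.90 ± 0.28, did not pass the threshold either (adjusted p = 0.86 and 0.71). Fosb had a mean under 1 CPM in IP and was not tested there. For Nr4a1 the values were 0.14 ± 0.25 and 1.45 ± 0.16, the latter called in IP.

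The test of the difference between the stress effects called 3 of 13341 genes (0.0225%), Zswim6, Rara and Axin2, and none of the 6 genes called in INPUT. Rara, the retinoic acid receptor alpha gene, had 17.6, 24.3, 14.9 and 20.1 CPM in naïve and 26.9, 28.4, 30.5 and 31.2 CPM in stress mice in INPUT (log2 fold change 0.62 ± 0.12, adjusted p = 0.12) and 19.5 ± 1.64 CPM in naïve against 12.8 ± 1.07 CPM in stress IP (SD, n = 4 each). Its effects differed by 1.23 ± 0.17 (adjusted p = 0.00450). Axin2, a feedback inhibitor of WNT signalling, had 38.4 to 48.0 CPM in naïve and 39.0 to 45.3 CPM in stress mice in INPUT and 61.6 ± 1.34 CPM in naïve against 37.3 ± 3.27 CPM in stress mice in IP (SD over 4 libraries), a difference of 0.70 ± 0.11 (adjusted p = 0.0195). Zswim6, a zinc finger SWIM domain protein, had 41.0, 40.6, 35.4 and 37.1 CPM in naïve and 49.3, 46.7, 42.4 and 46.3 CPM in stress mice in INPUT (log2 fold change 0.26 ± 0.07) and rose from 32.7 ± 1.17 to 84.3 ± 7.20 CPM in IP (SD, n = 4 each), a difference of −1.10 ± 0.10 (adjusted p = 2.23e-05).

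**Figure D5:**
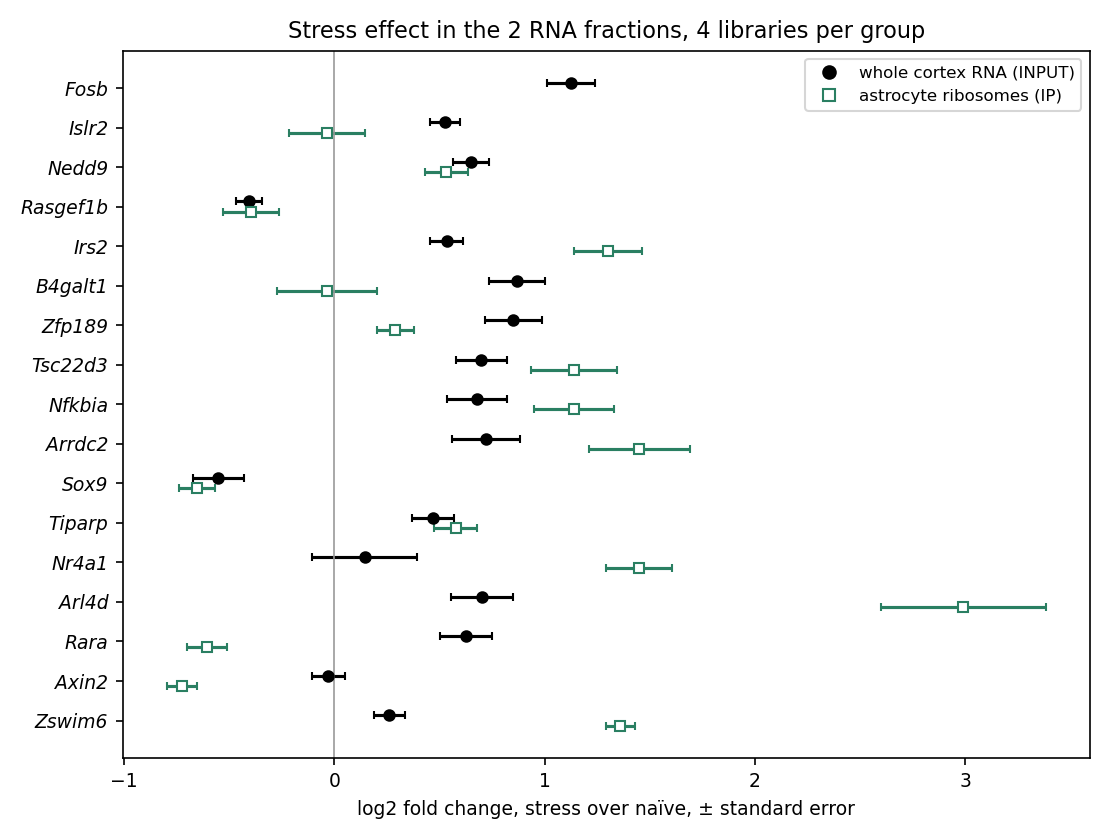
Log2 fold change of stress over naïve ± SE (horizontal axis) in whole cortex RNA (INPUT, circles) and astrocyte ribosome-bound RNA (IP, open squares) for the 6 genes called in INPUT and other genes named in the text, from 4 libraries per group. Fosb was not tested in IP. The squares of Rara and Axin2 lie to the left of 0 and that of Zswim6 to the right of its circle, and for these 3 genes the difference between the fractions passed the threshold.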

How the data were processed

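RNA of whole somatosensory cortex lysate (INPUT, 4 naïve and 4 stress libraries) was sequenced after ribosomal RNA depletion and a TruSeq preparation whose use of strand is not given in the sources used here. The authors aligned reads with STAR to mm10, counted them per gene with HTSeq, and deposited log2 CPM with a floor of −6.40 for genes without reads (edgeR and limma are also named in their processing notes, versions not given). Here the deposited log2 values were turned back into CPM and into reads, all of which were whole within 0.1.

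Genes with a mean above 1 CPM were tested on log2(CPM + 0.1) with limma 3.58.1 (variance trend, R 4.3.3) and Benjamini-Hochberg adjustment. A single gene was also tested by an exact two-sided permutation of the 70 labelings. Stress effects of INPUT and IP were compared by an interaction term over 16 libraries treated as independent, although each mouse gave an INPUT and an IP library, since the labels do not pair them. Of the other tests intended, edgeR with its TMM factors was not run, and limma-voom on the recovered reads used library totals, a choice made after seeing the data. Values were tabulated with pandas 2.3.3 and NumPy 2.4.6 and drawn with matplotlib 3.10.9 (Python 3.11.15). The fitting code was tested on simulated data.

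The genes named were those called, the 10 with the smallest p on each side among genes not called whose groups did not overlap, the 3 members of each list with the smallest p, a fixed set of markers and the genes the study lists for INPUT. Other names were added after their values were seen, namely Klf6, Sst, Gad2, Slc32a1, Nfkbia, Arrdc2, Angptl4, Cebpd, Sox2, Zfp36l2, Nr4a3, Sik1, Vgf, Kdr, Flt1 and Malat1. A listed marker is not reported here. Members and lists were chosen with earlier results of these data known. Coordinates and exon overlaps are from GENCODE M21 (GRCm38), in which 22760 of 24060 symbols were found, and promoter windows are from RefSeq (GRCm38.p6). Per the study's methods each animal's tissue was homogenized individually, so that the 4 INPUT libraries of a group are 4 mice. Depth limits cover counting error only.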

Additional observations from a re-analysis of the deposited data

Results flagged for a closer look

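In 228 groups of 4 libraries (114 named genes, naïve and stress), the most extreme library was compared with the other 3 by Dixon's test at the 95% level, which chance passes in about 1 of 20 groups (11.4 here). It was passed in 22 groups.

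Stress replicate 9 stood apart in 5 genes. It had 25.5 CPM of Kcnq1ot1, an RNA retained in the nucleus, against 80.1 to 89.2 CPM in the other stress libraries, and 13.4 CPM of Cxcl12 against 16.3 to 16.9 CPM. It was highest for Bmp4 (7.30 CPM against 4.51 to 4.88), Nr1d1 (72.8 CPM against 59.4 to 61.1) and Slc17a7 (1246 CPM against 1082 to 1107).

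Naïve replicate 14 stood apart in Fkbp5 (49.3 CPM against 22.5 to 27.1 in the other naïve libraries), Sgk1 (123.5 CPM against 70.3 to 79.3) and Gad1 (323 CPM against 301 to 305). Naïve replicate 3 stood apart in Npy1r (40.1 CPM against 32.0 to 33.1), Plat (22.6 CPM against 26.8 to 27.7) and Ttr (13.4 CPM against 0.294 to 0.966), and naïve replicate 7 in Sox10 (36.8 CPM against 30.4 to 31.2), Bcas1 (63.8 CPM against 67.6 to 67.8), Cdkn1a (9.07 CPM against 6.23 to 6.51) and Cryab (80.2 CPM against 67.6 to 69.5).

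Stress replicate 12 stood apart in B4galt1 (9.65 CPM against 7.69 to 7.90), Dusp5 (17.4 CPM against 12.8 to 13.2), Dcn (20.7 CPM against 16.6 to 17.2) and St8sia4 (12.2 CPM against 13.7 to 14.0). Stress replicate 1 stood apart in C1qb (38.4 CPM against 44.1 to 44.8), Kcnj13 (2.44 CPM against 1.32 to 1.51) and Zfp36l2 (14.1 CPM against 22.3 to 22.7).

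The stress effect differed between whole cortex RNA and astrocyte ribosome-bound RNA in 3 genes by the limma test of the difference. The INPUT effect minus the IP effect was 0.70 for Axin2 (adjusted p = 0.0195), 1.23 for Rara (adjusted p = 0.0045) and −1.10 for Zswim6 (adjusted p = 2.23e-05). In these 3 genes the part of library composition was not tested.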

How the results depend on the processing

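Of 13577 genes 6 were called. Array weights gave 50 calls (40 higher and 10 lower), a model of all 16 libraries 2 (Zfp189 and Nedd9), and no variance trend 0, where 727 genes had an unadjusted p under 0.05. Leaving out a library gave 1 to 32 calls, the most without naïve replicate 14 and, with 18, without stress replicate 9. The cause was not tested. Pseudocounts, filters on low values, other scalings, limma-voom and the Xist level as a covariate gave 5 to 7 calls, all including Fosb, Islr2, Nedd9 and Rasgef1b. Irs2 was lost with median ratio scaling, and B4galt1 with limma-voom, with the covariate and with no filter on low values. The difference between fractions kept 3 calls in all alternatives but the one without a variance trend, which gave 2.

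Of 911 values of named genes with a library left out, 13 changed sign, 28 lost and 26 gained a call, and of 1348 values under other alternatives 1 changed sign, 15 lost and 34 gained a call. The sign changed with array weights for Malat1 (0.097). With a library left out, log2 fold changes ranged from −0.043 to 0.447 for Kcnj13, −0.581 to 0.038 for Kcnq1ot1, −0.687 to 0.089 for Snhg11, −0.586 to 0.053 for Npas4, −0.182 to 0.344 for Nr4a1, −0.042 to 0.136 for Gjb6, −0.153 to 0.033 for Rbfox3, −0.070 to 0.010 for Slc17a7, −0.074 to 0.033 for Axin2 and −0.180 to 0.268 for Malat1. List medians moved by more than the spread between libraries in 4 of 200 values with a library left out and 3 of 298 others, 4 of the 7 in the inhibitory neuron list (0.06 to 0.09). The edgeR test and TMM factors were not run. No paired analysis was possible because no replicate number is shared between naïve and stress libraries. A value of 0 allows up to 0.183 CPM in the shallowest library, so that differences in genes near 1 CPM rest on few reads.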
